A study of Mus musculus with 2 samples.

Results

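Superoxide and hydrogen peroxide are removed by a small set of enzymes, and 10 of their genes are described here by cell type in the mouse lung around and away from seeded tumour cells. The genes are Sod1, Sod2, Sod3, Cat, Gpx1, Gpx3, Gstm1, Gsta4, Gclc and Txnrd1, taken by their symbols, and all 10 were among the 10198 genes listed in both count tables. The niche library held CD45- lung cells titled as niche cells, and the distal library held CD45- lung cells titled as distal. Both came from mice that had received Labelling-4T1 cells by intravenous injection 7 days earlier, so the distal cells also came from an injected mouse. The 4T1 line was derived from a mouse mammary tumour and colonises the lung. The deposited files are named as Cherry positive for the niche and Cherry negative for the distal library. Mouse strain, age, the number of animals behind each library and the details of the sort are not given in the sources used here.

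Superoxide dismutases turn superoxide into hydrogen peroxide in the cytosol (Sod1), the mitochondrial matrix (Sod2) and the extracellular space (Sod3). Catalase (Cat) and the selenium-dependent glutathione peroxidases Gpx1, which is intracellular, and Gpx3, which is secreted, then reduce the peroxide. Glutathione, whose synthesis is limited by the catalytic subunit Gclc, feeds the peroxidases and the transferases Gstm1 and Gsta4, which couple it to electrophiles, and Txnrd1 keeps cytosolic thioredoxin reduced.

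Droplet libraries counted transcript molecules by unique molecular identifiers (UMIs). After filtering, the niche library held 1423 cells with a median of 2975 UMIs and the distal library 1987 cells with a median of 1975 UMIs. There was 1 library per group, so no difference has a replicate check and none was tested. Every interval given is a 95% interval of counting error only. A gene was called higher or lower where its level differed at least 2-fold and the interval of the ratio excluded equality. Levels are UMIs per 1000000 UMIs (CPM) of the genes listed in both tables, summed over the cells of a class. They come from the 3′ end of transcripts and were not scaled by gene length. The niche and distal libraries held 781 and 400 mesenchymal-like cells, 497 and 1307 endothelial-like cells, 94 and 254 epithelial-like cells, and 51 and 26 immune-like cells, named from markers. The class names rested on their defining markers: the 7 fibroblast markers summed to 12117 and 14143 CPM in niche and distal mesenchymal-like cells, against 272 and 94.8 CPM in niche and distal endothelial-like cells. The libraries shared 7 cell barcodes. RNA of alveolar type 2 cells was spread more widely in the distal library: Sftpc, their surfactant gene, had a UMI in 33.5% of niche and 96.5% of distal mesenchymal-like cells. Cells in which the nuclear transcript Malat1 was under 0.1% of UMIs numbered 108 among niche and 25 among distal cells.

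Promoter windows of 300 bases (250 before to 50 after the annotated start, RefSeq on GRCm38.p6) were given for 7 of the 10 genes, and not for Sod3, Gsta4 and Gclc. Shown are those of Sod2 and Gstm1, the best-counted members called higher and lower in mesenchymal-like cells, and the windows of Sod1 and Txnrd1 that hold the core of the antioxidant response element, TGACNNNGC, marked in capitals. The core was searched on both strands and is found in 12.4% of 32851 promoter windows of the same length. It was in 2 of the 10 windows of these genes. The NF-kB pattern (GGG, 2 free bases, then TTTCC, also on both strands), present in 1.63% of all windows, was in none of the 10. A match describes letters in a window and says nothing of binding.
Sod2, chr17:13007589-13007888, plus strand: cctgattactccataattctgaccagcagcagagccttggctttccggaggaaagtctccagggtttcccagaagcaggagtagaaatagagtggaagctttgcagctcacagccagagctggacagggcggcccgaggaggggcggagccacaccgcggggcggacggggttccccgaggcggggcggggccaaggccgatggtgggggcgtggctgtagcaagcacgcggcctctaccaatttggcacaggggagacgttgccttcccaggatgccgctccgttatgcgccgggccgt
Gstm1, chr3:108017769-108018068, minus strand: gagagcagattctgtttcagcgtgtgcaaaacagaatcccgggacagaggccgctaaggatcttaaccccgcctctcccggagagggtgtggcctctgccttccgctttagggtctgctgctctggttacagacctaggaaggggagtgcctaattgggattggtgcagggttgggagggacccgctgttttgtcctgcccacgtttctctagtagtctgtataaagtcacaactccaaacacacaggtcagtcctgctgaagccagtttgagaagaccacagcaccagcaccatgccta
Sod1, chr16:90220512-90220811, plus strand: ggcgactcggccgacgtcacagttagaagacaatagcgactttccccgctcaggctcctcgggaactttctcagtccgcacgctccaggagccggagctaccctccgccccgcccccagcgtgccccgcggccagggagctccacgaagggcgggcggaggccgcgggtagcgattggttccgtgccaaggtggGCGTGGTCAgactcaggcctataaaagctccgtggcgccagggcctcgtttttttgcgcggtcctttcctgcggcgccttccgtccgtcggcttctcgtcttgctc
Txnrd1, chr10:82858956-82859255, plus strand: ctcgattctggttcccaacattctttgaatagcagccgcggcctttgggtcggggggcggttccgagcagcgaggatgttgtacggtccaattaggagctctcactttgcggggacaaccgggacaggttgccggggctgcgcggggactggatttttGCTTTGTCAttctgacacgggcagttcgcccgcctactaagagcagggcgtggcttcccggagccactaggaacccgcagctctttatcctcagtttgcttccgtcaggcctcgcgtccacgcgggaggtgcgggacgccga

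Over all cells of each library, Sod3, Sod2 and Gpx3 were higher in the niche and Cat and Gclc were lower. Sod3 stood at 1097 CPM in niche cells and 288 CPM in distal cells (log2 ratio 1.93, 95% interval 1.85 to 2.02). Sod2 stood at 443 CPM in niche cells and 136 CPM in distal cells (1.71, 1.58 to 1.84), and Gpx3 at 1943 and 813 CPM in niche and distal cells (1.26, 1.20 to 1.31). Cat stood at 35.5 CPM in niche cells and 103 CPM in distal cells (-1.54, -1.79 to -1.29), and Gclc at 20.4 and 46.4 CPM in niche and distal cells (-1.18, -1.54 to -0.84). Thus 3 of 10 members were called higher, against 5.16% of 10198 genes, and 2 lower, against 6.08%. Without both mesenchymal-like clusters that were almost wholly from the niche, an alternative added after the data were seen, the Sod2 ratio was 0.66 (0.51 to 0.81) and was no longer called, and without the Cxcl9-led cluster alone the Gpx3 ratio was 0.98 (0.93 to 1.04) and was no longer called. Mesenchymal-like cells made up 54.9% of niche and 20.1% of distal cells, and epithelial-like cells 6.61% of niche and 12.8% of distal cells. The classes were therefore taken apart.

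**Figure D1:**
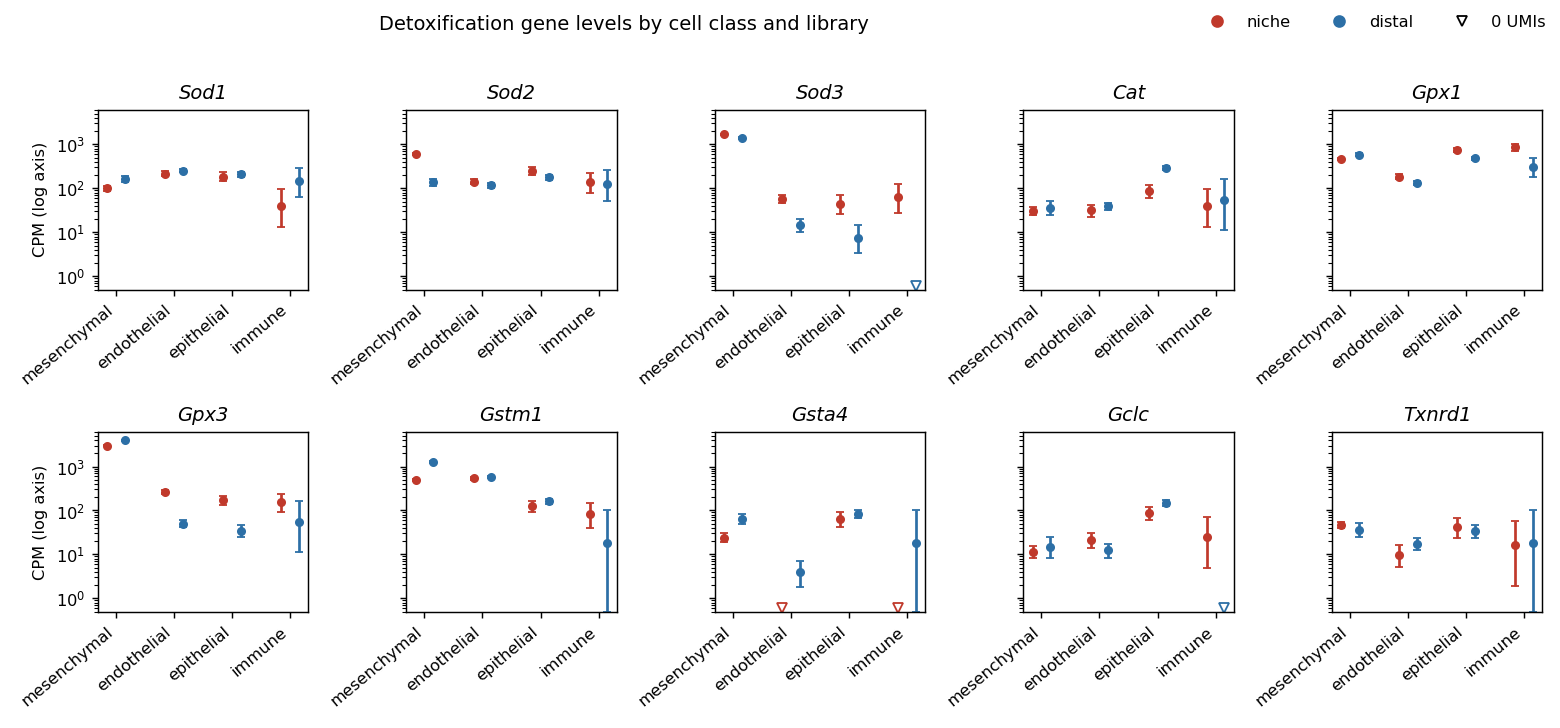
Level of each of the 10 genes in CPM (log axis) in 4 cell classes, with the niche library in red on the left and the distal library in blue on the right of each pair. Points are sums over cells, bars are 95% Poisson intervals of counting error, and open triangles mark 0 UMIs. Sod3 and Gpx3 lie highest in mesenchymal-like cells of both libraries, Cat and Gclc in epithelial-like cells, and in mesenchymal-like cells Sod2 stands higher and Gstm1 lower in the niche.

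Levels by class grouped some of the genes. Sod3 (chromosome 5, 52363791 to 52371418, plus strand, GRCm38) belonged to mesenchymal-like cells: 89.9% of niche and 75.8% of distal cells of that class had a UMI, against 12.7% and 2.60% of niche and distal endothelial-like cells, whose median depths were 2341 and 1715 UMIs beside 3557 and 2080.5 in the mesenchymal-like cells. Among the other niche classes the Sod3 intervals overlapped. Gpx3 (chromosome 11, 54902453 to 54910377, plus strand) was likewise highest in mesenchymal-like cells, with 2959 and 3949 CPM in niche and distal cells and at most 264 CPM in any other class of either library. Cat (chromosome 2, 103453849 to 103485160, minus strand) and Gclc (chromosome 9, 77754535 to 77794485, plus strand) were led by alveolar type 2-like cells, where Cat stood at 274 and 313 CPM and Gclc at 337 and 159 CPM in niche and distal cells. Outside epithelial-like cells, intervals of Cat overlapped between every pair of classes within a library.

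Gstm1 (chromosome 3, 108012255 to 108017973, minus strand) was shared between mesenchymal-like and endothelial-like cells and ran lower in epithelial-like cells. In the niche the 2 stromal classes had overlapping intervals, at 501.5 CPM in mesenchymal-like and 534 CPM in endothelial-like cells. In the distal library mesenchymal-like cells stood at 1270.5 CPM, above the 574 CPM of endothelial-like cells. Gstm1 has closely similar paralogues, so the division of molecules between them is uncertain. Sod1 (chromosome 16, 90220754 to 90226329, plus strand), the cytosolic copper and zinc enzyme, was lowest in mesenchymal-like cells among the 3 large classes, at 99.8 and 165 CPM in niche and distal cells, against 217 and 252 CPM in niche and distal endothelial-like cells. In the distal library the mesenchymal-like interval (140 to 193 CPM) overlapped that of epithelial-like cells (183 to 236 CPM). Sod1 overlaps Scaf4 on the opposite strand, and whether the counting used strand is not given in the sources used here. Gsta4 (chromosome 9, 78182774 to 78209349, plus strand), which handles the lipid peroxidation product 4-hydroxynonenal, was found in epithelial-like and mesenchymal-like cells and nearly absent from endothelial-like cells. Gpx1 (chromosome 9, 108338903 to 108340343, plus strand) was detected in every class. Txnrd1 (chromosome 10, 82833951 to 82897712, plus strand), which overlaps Gm38560, Gm47073 and Eid3, stayed at 47.6 CPM or less in all 4 classes of both libraries.

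In mesenchymal-like cells, mainly the fibroblasts and pericytes of the stroma, the 10 genes did not move as a block. The mitochondrial dismutase was called higher in the niche and both transferases were called lower. Sod2 (chromosome 17, 13006846 to 13040063, plus strand) had 1948 niche and 128 distal UMIs, or 609 and 137 CPM (log2 ratio 2.15, 1.90 to 2.42). Gstm1 had 1603 niche and 1188 distal UMIs (501.5 and 1270.5 CPM, log2 ratio -1.34, -1.45 to -1.23). Gsta4 had 77 niche and 59 distal UMIs (24.1 and 63.1 CPM, -1.39, -1.90 to -0.87). Thus 1 of 10 members was called higher, against 3.35% of 9972 genes, and 2 were called lower, against 7.51%. The members' median log2 ratio was -0.37, beside -0.16 over all genes of the class.

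The other members moved by less than 2-fold. Sod1 stood at 99.8 CPM in niche and 165 CPM in distal cells (-0.73, -1.0 to -0.44), and Gpx1 at 459 and 577.5 CPM in niche and distal cells (-0.33, -0.47 to -0.19). Gpx3 stood at 2959 CPM in the niche and 3949 CPM in the distal library (-0.42, -0.47 to -0.36), while Sod3, the other secreted enzyme, stood at 1717 and 1415 CPM in niche and distal cells (0.28, 0.19 to 0.37). The secreted pair thus lay on opposite sides of equality by small steps. For Cat (-0.26, -0.82 to 0.36), Gclc (-0.40, -1.29 to 0.63) and Txnrd1 (0.37, -0.16 to 0.97) the interval included equality, and with 51 UMIs of Gclc over both libraries a 2-fold difference was not resolved. The median log2 ratio of well-counted genes in the class was -0.11, and centring on it changed the sign of none of the 10 members.

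Depth and RNA quality moved with these groups. Mesenchymal-like cells had a median of 3557 UMIs among niche and 2080.5 among distal cells, and 58 niche and 14 distal cells of the class had low Malat1. With each cell thinned to 1200 UMIs, the Sod2 log2 ratio was 2.13, that of Gstm1 -1.02 and that of Gsta4 -1.03. Without the low-Malat1 cells the ratios were 2.09 for Sod2, -1.34 for Gstm1 and -1.32 for Gsta4. The 7 alveolar type 2 markers summed to 159 CPM in niche and 2279 CPM in distal mesenchymal-like cells, with all 7 above 0 in both, and the 7 endothelial markers to 137 and 360 CPM in niche and distal cells, also with all 7 above 0. Their part in the ratios was not tested.

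**Figure D2:**
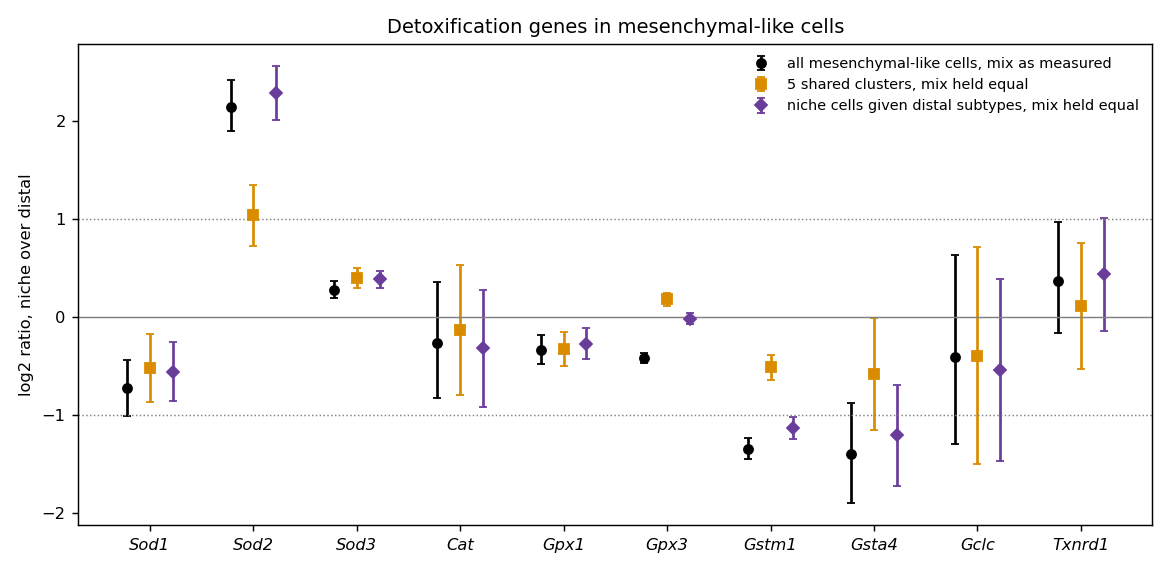
Log2 ratio of niche over distal for each gene in mesenchymal-like cells, for all cells of the class (black), for the 5 clusters with at least 20 cells in both libraries with their mix held at the distal shares (orange) and for niche cells given their nearest distal subtype (purple). Bars are 95% counting intervals and dotted lines mark 2-fold. Sod2 lies above 0 and Gstm1 below 0 in all 3, whereas Gpx3 lies at -0.42, 0.18 and -0.01.

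The mesenchymal-like class was made up of different subtypes in the libraries, named here by the genes that led each cluster. With niche cells first, an Eln and Cxcl14 cluster (matrix fibroblast-like) held 185 and 44 cells, a Tcf21 and Mfap4 cluster (lipofibroblast-like) 73 and 124, a Mustn1 and Aspn cluster (alveolar myofibroblast-like) 115 and 107, a Pi16 and Dcn cluster (adventitial fibroblast-like) 134 and 86, and a Cox4i2 and Higd1b cluster (pericyte-like) 21 and 35. A cluster led by the chemokine and protease inhibitor genes Cxcl9, Timp1 and Ccl2 held 180 niche and 3 distal cells, 46 of the niche cells with low Malat1. A cluster led by Cxcl10, Ccl7 and Enpp2 held 73 niche and 1 distal cell. By the same marker lists the Cxcl9-led cluster was also matrix fibroblast-like, with 4 of 4 markers detected. The Cxcl10-led cluster was also alveolar myofibroblast-like, with 6 of 6. Members and other antioxidant genes had been left out of the genes used for clustering, so no member defined a cluster.

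The 2 clusters that were almost wholly from the niche carried most of its Sod2. The Cxcl9 Timp1 cluster stood at 1267 CPM and the Cxcl10 Ccl7 cluster at 1061 CPM, while niche cells of the other mesenchymal-like clusters lay between 209 and 582 CPM. Together these 253 niche cells held 37.6% of the UMIs of the class in the niche, 73.8% of its Sod2 UMIs, 14.8% of its Gstm1 UMIs and 14.3% of its Gsta4 UMIs. Their Gstm1 levels were 213 and 167 CPM, and Gsta4 stood at 13.9 CPM in the Cxcl9 Timp1 cluster and had 0 UMIs in the Cxcl10 Ccl7 cluster. High Sod2 and low Gstm1 thus met in the same niche clusters.

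Within each of the 5 clusters present in both libraries, Sod2 was also higher in the niche. It stood at 249 and 144 CPM in niche and distal matrix fibroblast-like cells (0.75, 0.03 to 1.66), at 216 and 110 CPM in niche and distal lipofibroblast-like cells (0.97, 0.27 to 1.70) and at 299 and 159 CPM in niche and distal myofibroblast-like cells (0.90, 0.36 to 1.5). Niche and distal adventitial fibroblast-like cells stood at 209 and 85.4 CPM (1.27, 0.64 to 2.01), and niche and distal pericyte-like cells at 582 and 245 CPM (1.21, 0.30 to 2.29). All 5 intervals excluded equality, and the adventitial and pericyte-like ratios passed 2-fold, where 1.8% and 6.05% of genes were called higher. The pericyte-like call was lost when niche cells were given their nearest distal subtype. Sod2 then stood at 275 and 245 CPM in niche and distal cells of the Cox4i2 and Higd1b subtype (0.13, -0.73 to 1.17). It was called higher in the Slc7a10 and Npnt, Ifi27l2a and Cxcl14, Mustn1 and Hhip, and Pi16 and Serpinf1 subtypes. Its log2 ratios there ran from 2.21 to 2.76, and no share of all genes called was taken for these subtypes.

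Gstm1 did not follow 1 pattern within these shared clusters. It was lower in niche matrix fibroblast-like cells, at 498 CPM against 1600 CPM in distal cells (-1.69, -1.95 to -1.41), and in niche myofibroblast-like cells, at 408 CPM against 1069 CPM in distal cells (-1.39, -1.68 to -1.10), where 3.38% and 4.81% of genes were called lower. Adventitial fibroblast-like cells stood at 943 CPM in the niche and 1337 CPM in the distal library (-0.50, -0.70 to -0.31). Lipofibroblast-like cells stood at 1540 CPM in the niche and 1490 CPM in the distal library, with an interval that included equality (0.05, -0.17 to 0.27). Pericyte-like cells held only 2 niche and 8 distal UMIs. The interval of the pericyte-like ratio also included equality (-1.99, -5.50 to 0.10). With niche cells given their nearest distal subtype, the Slc7a10 and Npnt subtype (lipofibroblast-like) stood at 871 and 1516 CPM in niche and distal cells (-0.80, -0.99 to -0.61). Under that assignment the Gstm1 interval also lay below equality in the Ifi27l2a and Cxcl14, Mustn1 and Hhip, and Pi16 and Serpinf1 subtypes. It included equality in the Cox4i2 and Higd1b subtype (-0.94, -2.23 to 0.55).

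Gsta4 was called lower in niche matrix fibroblast-like cells (17 and 10 UMIs, 21.9 and 95.8 CPM in niche and distal cells, log2 ratio -2.16, -3.34 to -0.84). In lipofibroblast-like and adventitial fibroblast-like cells its intervals included equality, and it was at or near 0 in myofibroblast-like and pericyte-like cells of both libraries. Sod1 lay below equality in all 5 clusters, with an interval that excluded it only in pericyte-like cells (5 and 16 UMIs in niche and distal cells, -1.81, -3.70 to -0.39, against 4.36% of genes called lower). Gpx1 was lower in niche myofibroblast-like cells, at 600 CPM against 938 CPM in distal cells (-0.65, -0.92 to -0.37). Its intervals included equality in the other 4 clusters. Niche cells were also given their nearest distal subtype. Gpx1 then stood at 623 and 703 CPM in niche and distal Mustn1 and Hhip cells (-0.18, -0.47 to 0.13). In a Cnn1 and Acta2 subtype of 7 niche and 16 distal cells it stood at 895 and 1757 CPM (-0.95, -1.73 to -0.27). Its interval also lay below equality in the Slc7a10 and Npnt (-0.47, -0.78 to -0.16) and Pi16 and Serpinf1 subtypes (-0.30, -0.59 to -0.002).

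The secreted enzymes split by subtype. The Gpx3 level was highest in lipofibroblast-like cells, at 10841 CPM in the niche and 9245 CPM in the distal library (0.23, 0.15 to 0.31). These cells held 21.7% of niche and 70.8% of distal Gpx3 UMIs of the class. Larger shares of the niche Gpx3 UMIs lay in the Cxcl9-led cluster (32.2%) and the matrix fibroblast-like cluster (28.7%). In niche and distal matrix fibroblast-like cells Gpx3 stood at 3503 and 5269 CPM (-0.59, -0.72 to -0.45). Adventitial fibroblast-like cells stood at 1047 and 683 CPM (0.61, 0.37 to 0.86) and pericyte-like cells at 3476 and 1661 CPM (1.06, 0.70 to 1.44, called higher against 6.05% of genes). So in 3 of the 5 clusters Gpx3 lay above equality with its interval, although the class as a whole lay below it. Sod3 was higher in niche myofibroblast-like cells, at 1792 CPM against 822 CPM in distal cells (1.12, 0.89 to 1.37, against 3.44% of genes called higher). With niche cells given their nearest distal subtype, Mustn1 and Hhip cells stood at 1771 and 927 CPM (0.93, 0.69 to 1.19), under 2-fold. Cox4i2 and Higd1b cells then stood at 297 and 94.4 CPM in niche and distal cells (1.53, 0.35 to 3.33). In the shared clusters Sod3 stood at 3171 and 2257 CPM in niche and distal lipofibroblast-like cells (0.49, 0.33 to 0.65). In matrix fibroblast-like cells its interval included equality (-0.08, -0.29 to 0.14), and in adventitial fibroblast-like cells it lay slightly below (-0.23, -0.45 to -0.01).

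**Figure D3:**
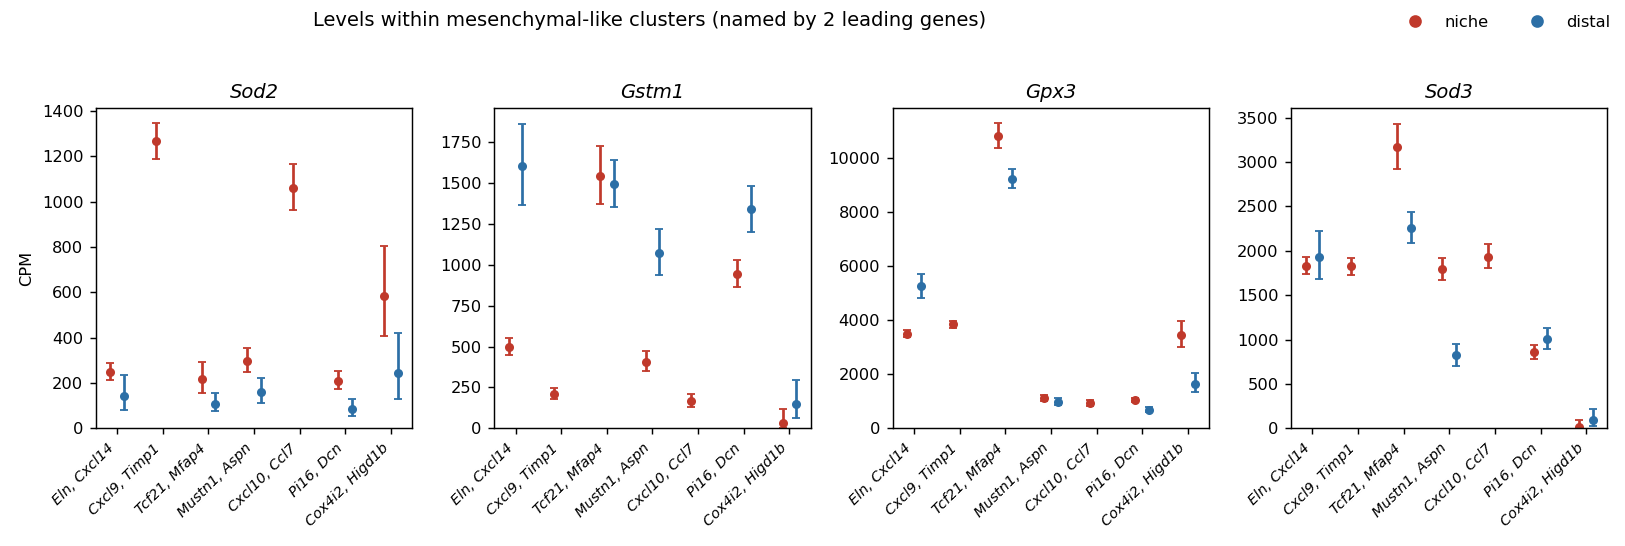
Levels in CPM of Sod2, Gstm1, Gpx3 and Sod3 in each mesenchymal-like cluster, named by leading genes, with niche in red on the left and distal in blue on the right. Bars are 95% Poisson intervals, and the Cxcl9 Timp1 and Cxcl10 Ccl7 clusters have no distal point because they held 3 and 1 distal cells. Sod2 peaks in those 2 clusters at 1267 and 1061 CPM, and Gpx3 peaks in the Tcf21 cluster in both libraries.

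How far the subtype mix carries these ratios was measured by giving both libraries the same mix over the 5 shared clusters, which held 528 niche and 396 distal cells. At the distal mix the Sod2 log2 ratio was 1.04 (0.73 to 1.35), beside 1.03 with the mix as it was in the same clusters, and the mix alone, applied to distal levels, gave 0.06. The difference to 2.15 for the whole class came from leaving out the clusters present almost only in the niche. With these left out and nothing held equal, an alternative added after the data were seen, the ratios were 1.02 for Sod2, -0.91 for Gstm1 and -0.95 for Gsta4, so no member was then called lower. At the distal mix Gstm1 stood at -0.51 (-0.64 to -0.39) and Gsta4 at -0.58 (-1.16 to -0.01), while at the niche mix they stood at -0.99 (-1.13 to -0.85) and -1.09 (-1.72 to -0.47). The mix alone gave 0.08 for Gstm1 and 0.15 for Gsta4, on the other side of equality from their ratios. Gstm1 lay below equality at every mix and clustering tried over shared clusters, from -0.99 to -0.20, with the smallest step when the mesenchymal-like cells were clustered again. Gsta4 ran from -1.09 to -0.15 over the same settings, and its interval included equality in the reclustered cells (-0.50, -1.17 to 0.17) and at the finer resolution (-0.15, -0.77 to 0.47).

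The direction of Gpx3 turned with the mix, with intervals on either side of equality. It stood at -0.38 in the 5 shared clusters with the mix as it was, at 0.18 (0.11 to 0.25) with the distal mix, and at -0.16 (-0.24 to -0.07) with the niche mix. The mix alone gave -0.23. Txnrd1 also changed sign between settings over shared clusters, from -0.07 at the finer resolution to 0.15 at the niche mix, with every interval including equality. In the reclustered cells and at the finer resolution, both weighted by the distal mix, Gpx3 stood at 0.30 and 0.25. Sod3 stayed above equality, at 0.40 with the distal and 0.20 with the niche mix, and Sod1 and Gpx1 stayed below it, at -0.52 and -0.33 with the distal mix.

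The Cxcl9-led and Cxcl10-led clusters held 3 and 1 distal cells, too few for a ratio of their own. Each niche mesenchymal-like cell was therefore also given the subtype of its nearest distal cells. Chemokine, interferon, MHC and acute phase genes were left out of the comparison. This alternative was added after the data were seen. It placed 769 niche and 378 distal cells in 5 subtypes. With the distal mix the log2 ratios were then 2.29 (2.01 to 2.57) for Sod2, -1.13 (-1.25 to -1.02) for Gstm1, -1.21 (-1.72 to -0.69) for Gsta4 and -0.01 (-0.07 to 0.04) for Gpx3. The mix alone gave -0.07 for Sod2, -0.05 for Gstm1, -0.18 for Gsta4 and -0.67 for Gpx3. For Sod2 and Gstm1, neither way of holding the mix equal brought the interval to equality, and Gsta4 kept its sign. For Gpx3 the ratio came to equality or turned, except at the niche mix. The first way left out the Cxcl9-led and Cxcl10-led clusters, which held 37.6% of niche and 1.24% of distal UMIs of the class. The second placed niche cells in distal subtypes only, whatever their cluster. Whether the 2 clusters are subtypes or a trait of the niche library cannot be told apart. Their part in the ratios is therefore not settled by either way.

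Whether high Sod2 and low Gstm1 met in the same cells was looked at among niche mesenchymal-like cells thinned to 1200 UMIs. The 293 cells with a Sod2 UMI stood at 449 CPM of Gstm1 (382 to 525), and the 488 cells without one at 717 CPM (650 to 789). Within the 5 shared clusters alone, the 117 cells with a Sod2 UMI stood at 705 CPM (573 to 858) and the 411 without at 805 CPM (728 to 888), with overlapping intervals. In the same shared clusters Gpx3 was 4430 CPM (4089 to 4792) in cells with a Sod2 UMI and 3447 CPM (3285 to 3615) in cells without. Cells of 1 library are not replicates, and these values describe it only.

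In endothelial-like cells 7 of the 10 members were not called either way. Sod1 stood at 217 and 252 CPM in niche and distal cells (-0.22, -0.42 to -0.02), Gstm1 at 534 and 574 CPM (-0.10, -0.23 to 0.03) and Sod2 at 142 and 117 CPM (0.29, 0.02 to 0.55). Gpx1 was slightly higher in the niche, at 184 CPM against 134 CPM in distal cells (0.46, 0.22 to 0.70). The intervals of Cat (-0.30, -0.86 to 0.22), Gclc (0.77, -0.01 to 1.54) and Txnrd1 (-0.84, -1.90 to 0.03) included equality. The calls of higher level were those of both secreted enzymes. Gpx3 had 362 niche and 130 distal UMIs (264 and 50.5 CPM, 2.38, 2.09 to 2.69), and Sod3 had 79 niche and 37 distal UMIs (57.7 and 14.4 CPM, 1.99, 1.42 to 2.61). These 2 of 10 members were called higher, against 2.12% of 9710 genes. Gsta4 had 0 niche and 10 distal UMIs and was called lower, against 1.58% of genes. With 3 UMIs in place of the 0 it was at least 1.77-fold lower, which falls short of 2-fold.

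Fibroblast RNA in endothelial-like cells moved in the same direction as these calls. The 7 fibroblast markers summed to 272 CPM in niche and 94.8 CPM in distal endothelial-like cells, with all 7 above 0 in both, and Col1a1, a fibroblast collagen, had a UMI in 4.23% of niche and 1.15% of distal cells. Expressed as a share of the level in mesenchymal-like cells of the same library, the 7 markers ran from 1.01% to 4.95% in the niche, with a median of 1.38%, and from 0.40% to 0.895% in the distal library, with a median of 0.511%. Sod3 stood at 3.36% in niche cells, above every marker but Mfap4 (4.95%), and at 1.02% in distal cells, just above the marker range. Gpx3 stood at 8.93% in niche and 1.28% in distal cells, above every marker in both. The 5 cells with the most Gpx3 held 31.8% of its niche and 13.8% of its distal endothelial UMIs, and after thinning 19.4% of niche and 5.57% of distal cells had a UMI. Without the doublet calls the ratio was 2.20. The part of free or fibroblast RNA in the Sod3 and Gpx3 ratios was not tested.

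**Figure D4:**
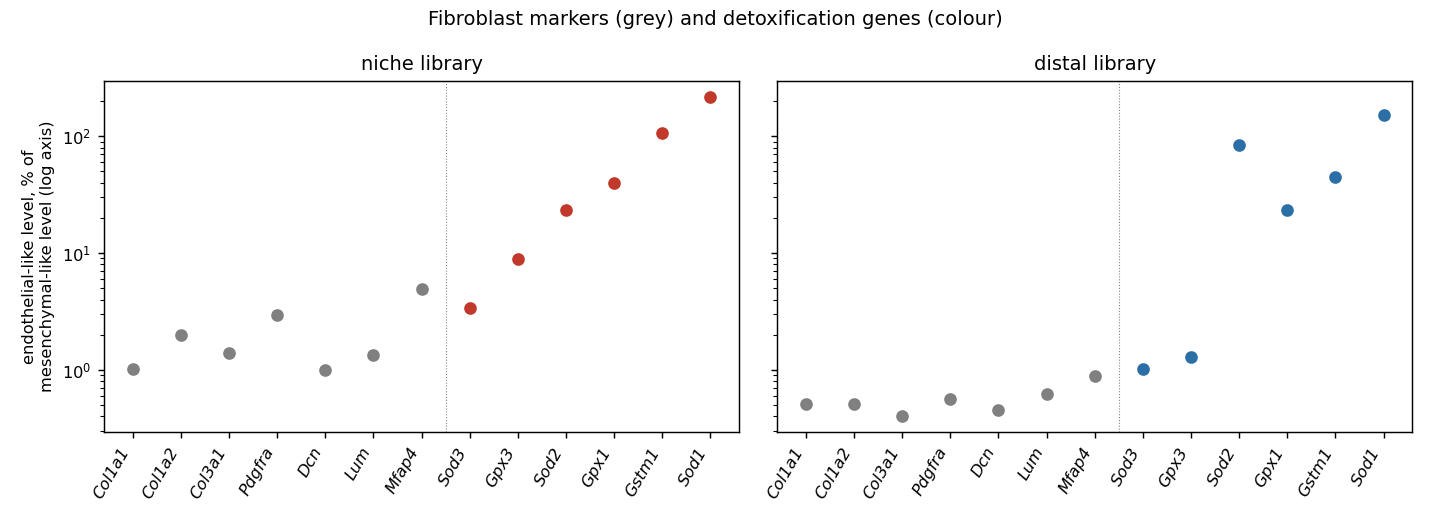
Level in endothelial-like cells as a percent of the level in mesenchymal-like cells of the same library (log axis), for 7 fibroblast markers in grey and 6 detoxification genes in colour, with the niche library on the left and the distal library on the right. The markers lie between 1.01% and 4.95% in the niche and between 0.40% and 0.895% in the distal library, with Gpx3 above them at 8.93% and 1.28%.

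Among endothelial-like clusters, Gpx3 was called higher in 4 of the 5 clusters with at least 20 cells in each library. It was widest in the cluster led by the interferon-induced genes Ido1, Serpina3g and Wars, at 423 CPM in the niche and 40.3 CPM in the distal library (3.33, 2.50 to 4.44, against 3.08% of genes called higher). None of the capillary markers was among the 10 leading genes of that cluster, which kept its class by 4 of 4 general capillary markers detected. The Esm1 cluster stood at 216 and 28.6 CPM in niche and distal cells (2.88, 1.77 to 4.17, against 1.24%). The general capillary-like clusters led by Sema3c and Hpgd had log2 ratios of 1.92 and 1.89, against 1.31% and 1.22% of genes called higher. Car4 capillary-like cells stood at 220 and 132 CPM in niche and distal cells (0.73, 0.12 to 1.36), under 2-fold. Sod3 was called higher in 4 of the 5 clusters too, the exception being the Esm1 cluster (3 niche and 8 distal UMIs), and in Car4 capillary-like cells it rested on 11 niche UMIs and 1 distal UMI, against 1.39% of genes. In the same Ido1 cluster Gstm1 was lower, at 233 CPM in the niche against 363 CPM in the distal library (-0.63, -1.13 to -0.16), whereas its intervals in the other 4 clusters included equality.

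Epithelial-like cells could not be compared as a class without naming their makeup. In the niche, 73.4% of them belonged to a mixed Scgb1a1 and Krt18 cluster (69 cells, 44 of them with low Malat1), and in the distal library 85% were alveolar type 2-like (216 cells). Over the class, Gpx3 (171 and 34.3 CPM in niche and distal cells) and Sod3 (43.9 and 7.54 CPM) were called higher, 2 of 10 members against 12.4% of 8071 genes. Cat, at 85.4 CPM in the niche and 296 CPM in the distal library (-1.78, -2.34 to -1.29), was called lower, 1 of 10 against 10.3%. The 7 fibroblast markers summed to 268 CPM in niche and 104 CPM in distal epithelial-like cells, with 6 and 7 of them above 0, and their part was not tested. Without the low-Malat1 cells the Cat ratio was -0.96 and was no longer called. Gpx1 stood at 752 and 479 CPM in niche and distal cells (0.65, 0.45 to 0.85), and at 0.27 (-0.03 to 0.56) without the low-Malat1 cells.

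Within alveolar type 2-like cells, 17 niche and 216 distal cells, Cat did not differ beyond counting error, with 26 niche and 341 distal UMIs (274 and 313 CPM, -0.17, -0.83 to 0.38). Gclc was higher in the niche, with 32 niche and 173 distal UMIs (337 and 159 CPM, 1.10, 0.49 to 1.63). That is the opposite sign to its ratio over the epithelial-like class (-0.76, -1.35 to -0.25). Over that class, the 5 cells with the most Gclc held 60% of its niche and 18.3% of its distal UMIs. Gstm1 was lower, on 5 niche and 160 distal UMIs (-1.35, -3.12 to -0.23). Sod3, with 5 niche and 7 distal UMIs (3.07, 1.03 to 4.91), and Gpx3, with 9 niche and 27 distal UMIs (1.99, 0.66 to 3.07), were higher in the niche on few UMIs. Sod1, Sod2, Gpx1, Gsta4 and Txnrd1 had intervals that included equality. These ratios rest on 17 niche cells, under the minimum of 20 set for a comparison of clusters.

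Immune-like cells were few, 51 niche and 26 distal, and only 5 of the 10 members reached 10 UMIs over both. Gpx1 was called higher, with 105 niche and 17 distal UMIs (852 and 311 CPM, 1.42, 0.71 to 2.29), 1 of 5 against 6.84% of 2135 genes, and 5 niche cells held 63.8% of its UMIs there. Sod1 was called lower on 5 niche and 8 distal UMIs (-1.80, -3.81 to -0.06), 1 of 5 against 1.97%.

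The wider antioxidant list was drawn up with earlier results of these data known and held 81 genes, of which 70 were in both tables. In mesenchymal-like cells 69 were measured, 3 were called higher and 5 lower, against 3.35% and 7.51% of all genes, so both counts were near the background. The median log2 ratio of the list was -0.16, the same as over all genes. Among the higher ones were thioredoxin itself, Txn1 (759 and 375 CPM in niche and distal cells, 1.01, 0.85 to 1.18), the haem oxygenase Hmox1 (41.3 and 16.0 CPM, 1.32, 0.59 to 2.24) and the gamma-glutamyl cyclotransferase Ggct (66 and 5 UMIs, 1.82, 0.65 to 3.62). Among the lower ones were the transferases Gstp1 (110 and 265 CPM in niche and distal cells, -1.26, -1.5 to -1.02) and Gsta3 (83.8 and 205 CPM, -1.29, -1.56 to -1.02), the mitochondrial aldehyde dehydrogenase Aldh2 (379 and 787 CPM, -1.05, -1.19 to -0.92) and the epoxide hydrolase Ephx1 (21.9 and 50.3 CPM, -1.20, -1.75 to -0.63). Of 12 other glutathione transferases measured in the class, 0 were called higher, 2 were called lower and 1 had a positive ratio, with a median of -0.62 beside -0.16 over all genes of the class, of which 3.35% were called higher and 7.51% lower. Of 14 genes of glutathione synthesis and recycling, 1 was called higher and 0 lower (median 0.20), and of 13 other superoxide and peroxide removing genes 0 were called either way (median 0.09). No test stands behind these counts.

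Of 67 genes of the wider list measured in endothelial-like cells 0 were called higher, against 2.12% of all genes, and 1 lower, against 1.58%, the transferase Gstm4, with 0 niche and 19 distal UMIs, at least 3.37-fold lower with 3 UMIs in place of the 0. Of 67 measured in epithelial-like cells 9 were called higher, against 12.4% of all genes, among them the transferase Gsto1 (2.43), glutathione reductase Gsr (1.73), the redox-sensitive chaperone Park7 (1.11) and Txn1 (1.04), and 10 were called lower, against 10.3%, among them Sepp1, the secreted selenoprotein (-2.72), Gstz1 (-2.79), Gstt3 (-1.72) and the microsomal transferase Mgst1 (-1.51), over the same difference in cell makeup. Over all cells 4 of 70 were called higher, against 5.16% of all genes (Ggct, Gsto1, the peroxidase Gpx8 and the oxidase Nox4, between 1.03 and 1.61) and 4 lower, against 6.08% (Maoa, Gstt3, Mgst2 and Txnrd3, between -1.36 and -1.09). In immune-like cells 4 of 30 measured were called higher, against 6.84%, and 0 lower, against 1.97%.

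The genes most like each member were found over 30 points, each a cluster of 1 library with at least 20 cells, among 4588 genes. The points share libraries and differ in depth, so the Pearson correlations of log2(CPM + 10) are descriptions. Sod3 was nearest to Loxl1 (r 0.95), Tnfsf13b and Fgf7 (0.94 each), and Gpx3 to Fxyd1 (0.94), Serping1 and G0s2 (0.90 each), while Sod3 and Gpx3 had r 0.84 with each other. Gstm1 was nearest to Gstm2 (0.93), Cbr1 (0.86) and Fmo2 (0.83), and Gsta4 to Selenbp1 (0.85), Slc1a5 and Efemp1 (0.82 each). Cat was nearest to the alveolar type 2 markers Napsa, Lamp3 and Slc34a2 (0.78, 0.76 and 0.74), and Gclc to Scd1, Hc and Sfta2 (0.73, 0.72 and 0.70). Gpx1 was nearest to Prdx5, S100a11 and Cebpb (0.83, 0.82 and 0.82), Sod1 to Vamp5, Prkar2a and Alkbh6 (0.77, 0.76 and 0.76), Sod2 to Timm10, Tnc and Cstb (0.73, 0.73 and 0.72) and Txnrd1 to Zfp36l1, Enah and Phpt1 (0.73, 0.69 and 0.68). Sod2 and Gstm1 had r -0.34, and Sod1 and Gpx1 had r -0.50.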

How the data were processed

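Whole-number UMI counts per gene and cell were taken as deposited, in 1 table per library with lowest gene totals of 10 (niche) and 12 (distal). The submitters' processing notes name Cell Ranger 2.1.1, R 3.4.1 and the build mm10. The strand setting is not given in the sources used here. Barcodes under 500 genes or over 10% mitochondrial UMIs were dropped, 50 of 1473 niche and 9 of 1996 distal ones. Niche cells totalled 5283584 deposited UMIs and distal cells 4791701. Scrublet called 10 niche and 24 distal doublets, which were kept.

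Cells were scaled to 10000 UMIs, and 1990 of 2000 variable genes were used after removing the members and the wider antioxidant list. With 20 components, 15 neighbours and Leiden resolution 1 (seed 0), 19 clusters were found and named from marker lists, at least 3 markers being detected in 25% of cells. Of the 27 lists drawn up, that of inflammatory fibroblasts (Cxcl9, Timp1, Ccl2 and Cxcl10) was not used for naming. The class names were rebuilt here. Ratios are sums of UMIs per 1000000 UMIs of the common genes with 0.5 UMI added, for genes with at least 10 UMIs over both libraries, and a floor of 3 UMIs stands for 0 where a bound is given. Intervals (Poisson for levels, Clopper-Pearson for shares and for the ratio conditional on the summed UMIs) cover counting error at 95% only. With 1 library per group there was no test. The steps were tested on simulated data. The sensitivity alternatives comprised 13 settings for class ratios.

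The members and gene lists were chosen with earlier results of these data known. All 10 members are named. From the wider list, up to 4 genes called in each direction in each class were named, and for each member the 3 genes of highest correlation over clusters with at least 300 UMIs. Thinning drew 1200 UMIs per cell. Tools were Python 3.11.15, scanpy 1.11.5, anndata 0.12.19, igraph 0.11.9, numpy 2.4.6, scipy 1.17.1, pandas 2.3.3, scikit-learn 1.9.0 and matplotlib 3.10.9. Gene positions are from GENCODE M21 (GRCm38).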

Additional observations from a re-analysis of the deposited data

Results flagged for a closer look

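Gpx3 and Gpx1 lay on opposite sides of equality in different cell classes. Gpx3 had a log2 ratio of niche over distal of 2.38 in endothelial-like and 2.31 in epithelial-like cells, against -0.42 in mesenchymal-like cells. Gpx1 had 0.46 in endothelial-like and 0.65 in epithelial-like cells, against -0.33 in mesenchymal-like cells. With 1 library per group the differences between classes were not tested, and the values of fibroblast markers, depth and low-Malat1 cells given with each class belong beside them.

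A few genes of the wider list were listed in 1 table only and entered no ratio. Aox3, an aldehyde oxidase, had 61 UMIs in the distal table. Gstcd, a protein with a glutathione transferase C-terminal domain, had 25 UMIs in the niche table, and the quinone reductase Nqo1 had 16 UMIs there.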

How the results depend on the processing

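Of 575 values recomputed under alternatives, 515 stayed within the counting interval of the reported value, 60 moved further and 0 reversed a called direction. Counts of called members are not among these values. Part of the 515 could not move. A changed minimum of UMIs only selects genes and leaves each ratio as it was. Leaving out mesenchymal-like clusters leaves the endothelial-like and epithelial-like ratios as they were. The Cxcl9-led cluster was not among the 5 shared clusters, so leaving it out changed no ratio with the mix held equal. Members called lower in endothelial-like cells were 0 instead of 1 with a minimum of 50 UMIs, with cells of at least 1000 genes and with thinned cells. Members called higher in epithelial-like cells were 1 instead of 2 with that minimum and with thinned cells. With the mean over cells of CPM per cell, 0 instead of 2 members were called lower over all cells and 2 instead of 1 in epithelial-like cells, and without low-Malat1 cells 0 were called lower in epithelial-like cells. Leaving out mesenchymal-like clusters with under 20 cells in 1 library, chosen after seeing the data, gave 0 instead of 2 members called lower there. Giving niche cells distal subtypes, also chosen after seeing the data, gave 3 instead of 1 called with the mix held equal. No share over all genes was taken with the mix held equal. The 2-fold calls over all cells also lost Sod2 (0.66) when those clusters were left out and Gpx3 (0.98) when the Cxcl9-led cluster was, and 7 instead of 4 genes of the wider list were called higher over all cells with centring. The cause was not tested. Among class ratios, signs changed without a call for Gclc in mesenchymal-like (-0.86 to 0.44), endothelial-like (-1.02 to 0.85) and epithelial-like cells (-1.04 to 0.21). They also changed for Gstm1 in endothelial-like (-0.20 to 0.03) and epithelial-like cells (-0.49 to 0.11) and for Txnrd1 in epithelial-like cells (-0.65 to 0.94). With the mix held equal, the signs of Gpx3 (-0.16 to 0.30) and Txnrd1 (-0.07 to 0.44) changed between settings. No paired analysis was possible because each group has 1 library, and the replicate number only names it. Depth limits Gclc, Txnrd1, Cat and Gsta4 outside their main classes, where few UMIs were counted.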
